A study of Mus musculus with 8 samples.

Results

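The genes of 9 receptors and signalling proteins of the pathway that drives medullary thymic epithelium were followed across freshly sorted and cultured thymic epithelial cells (TECs). They were *Tnfrsf11a* (RANK), *Tnfrsf11b* (osteoprotegerin), *Cd40*, *Ltbr* (the lymphotoxin beta receptor), *Traf3*, *Map3k14* (NIK), *Relb*, *Nfkb2* and *Aire*, and they are 9 of the 56923 gene rows of each library. They were chosen by name for their known place in one pathway. These members and the gene lists below were chosen with earlier results of these data known, so shares of all genes are given as a description. *In vivo* TECs had the highest mean level of 7 of the 9, D3 organoids had the lowest or joint lowest level of 6 of the 9, and 6 of 8 members tested were called higher in D7 than in D3 organoids, where 10.9% of all genes were. That count was 3 without D3 replicate 1 or without D7 replicate 2. *Ltbr* went another way, with its highest level in D7 organoids, and *Aire* was close to absent in every culture.

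RANK, CD40 and the lymphotoxin beta receptor are receptors of the TNF receptor family, whose ligands come largely from lymphoid cells of the thymus. In resting cells TRAF3, acting with TRAF2 and the ubiquitin ligases cIAP1 and cIAP2, keeps the kinase NIK at a low level by marking it for degradation. When a receptor of this group is engaged, TRAF3 is lost, NIK accumulates, and the NF-kB2 precursor is processed to a shorter subunit that enters the nucleus with RelB, which is called the noncanonical NF-kB pathway. In the thymus this pathway is known for the growth of medullary TECs and for the appearance of AIRE, the regulator that lets medullary cells transcribe genes of other tissues.

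The TECs were EpCAM+ cells sorted from wild-type C57BL/6J thymi of embryonic day 16.5. They were lysed at once (*in vivo* TECs), grown for 3 days as a monolayer on laminin (2D-cultured TECs), or grown in Matrigel and collected on day 3 (D3 organoids) or day 7 (D7 organoids), with 2 libraries labelled as biological replicates in each of the 4 groups. All cultures received the same defined TEC medium with the growth factor FGF7, and no other cell type was added. The ROCK inhibitor thiazovivin was in the medium that collected sorted cells and was added at the start of organoid culture. Whether the 2D cultures also received it during culture is not stated. No group carried a mutation or another treatment. EpCAM sorting takes cortical and medullary TECs together, and the study counts its replicates as mice. With 2 libraries against 2, the smallest two-sided p of an exact permutation test is 0.333, so the tests below are edgeR quasi-likelihood tests that share one estimate of the spread over all 8 libraries, with p adjusted by Benjamini-Hochberg over 14504 genes and called at 0.05.

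The libraries were sequenced from the 3′ ends of transcripts and held between 5084715 and 7612532 counts. Epithelial genes were present in each library, with summed levels of 2508 to 7589 CPM (counts per 1000000 counts of the library, scaled by TMM) over 8 genes. The sum of 14 thymocyte markers was 729 and 319 CPM in the *in vivo* libraries, of which *Rag1* was the largest part, and 3.72 to 13.9 CPM in the 6 cultured ones, while the thymocyte genes *Cd4* and *Cd8a* had at most 2 counts anywhere. The 10 markers of lymphoid tissue inducer cells, which carry ligands of this pathway, summed to 49.8 and 31.3 CPM *in vivo* and 3.09 to 15.9 CPM in culture, and of their defining genes *Il22* and *Cxcr5* had at most 2 counts. The 12 markers of B cells, dendritic cells and myeloid cells summed to at most 12.4 CPM in any library, with *Cd79a* and *Flt3* at 0 throughout. Of these *Lyz2* had 2 and 0 counts in D3 and 98 and 52 counts in D7 organoids, a log2 fold change of 6.01 ± 1.13 (adjusted p = 0.00134). *Lyz2* was the only 1 of the 12 to reach 1 CPM in 3 libraries. It made up nearly all of the D7 sums of 12.4 and 10.9 CPM. This 1 marker thus rose from D3 to D7 with the 6 members that did, while the rest of its list stayed near the floor in D7 organoids. The 10 mesenchyme markers summed to 102 and 71.2 CPM *in vivo*, 178 and 145 CPM in 2D-cultured TECs, 24.8 and 20.3 CPM in D3 organoids and 85.2 and 75.3 CPM in D7 organoids, lowest at D3 as most members were, and endothelial and erythroid markers to at most 12.0 CPM. *In vivo* replicate 1 thus had more thymocyte signal than replicate 2. Between these libraries *Tnfrsf11a* was also higher in replicate 1, as was the ligand gene *Tnfsf11*, *Map3k14* was nearly level, and the other 7 members were higher in replicate 2. The part of all these cells in the differences between groups was not tested.

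The 8 members other than *Aire* passed the filter on low counts. For *in vivo* TECs over 2D-cultured TECs 6 of the 8 were called, all higher, where 41.6% of all genes tested were called, 21.7% higher and 19.9% lower, and 3 were called without 2D replicate 2. For *in vivo* TECs over D3 organoids 6 of 8 were called, all higher, where 28.2% of all genes were called, 14.0% higher and 14.1% lower. For *in vivo* TECs over D7 organoids 5 were called higher and 1 lower, where 34.8% of all genes were called, 16.8% higher and 18% lower. For 7 of the 8 members in each of these comparisons, both libraries of one group lay beyond both of the other, which is common in groups of 2 and held for 69.6%, 61.6% and 69.9% of all genes tested. The median log2 fold change of the 8 was 1.13, 2.35 and 0.92, and that of all genes tested 0.06, 0.01 and -0.01.

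Among the cultures, D3 organoids against 2D-cultured TECs of the same culture time gave 5 members called lower and 1 higher, where 38.3% of all genes tested were called, 19.1% lower and 19.3% higher. The 5 were 3 without D3 replicate 1, and the 1 higher was not called without 2D replicate 1 or without D3 replicate 2. D7 organoids against 2D-cultured TECs, which differ in culture time as well as in format, gave 3 higher and 1 lower, where 45.5% of all genes were called, 24.4% higher and 21.1% lower, so that the members' share of calls was near that of all genes. The number called was 1 without 2D replicate 1 or without D7 replicate 2, and 2 without 2D replicate 2 or without D7 replicate 1. D7 against D3 organoids gave 6 higher and none lower, where 20.8% of all genes were called, 10.9% higher and 9.91% lower, and 3 higher without D3 replicate 1 or without D7 replicate 2. The groups did not overlap for 8, 5 and 7 of the 8 members in these comparisons, and for 69.2%, 75.8% and 64.7% of all genes tested. The medians of the 8 were -1.12, 0.25 and 1.36, beside 0.03, 0.10 and 0.06 for all genes tested. The 6 comparisons share their libraries and are not independent of each other.

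**Figure D1:**
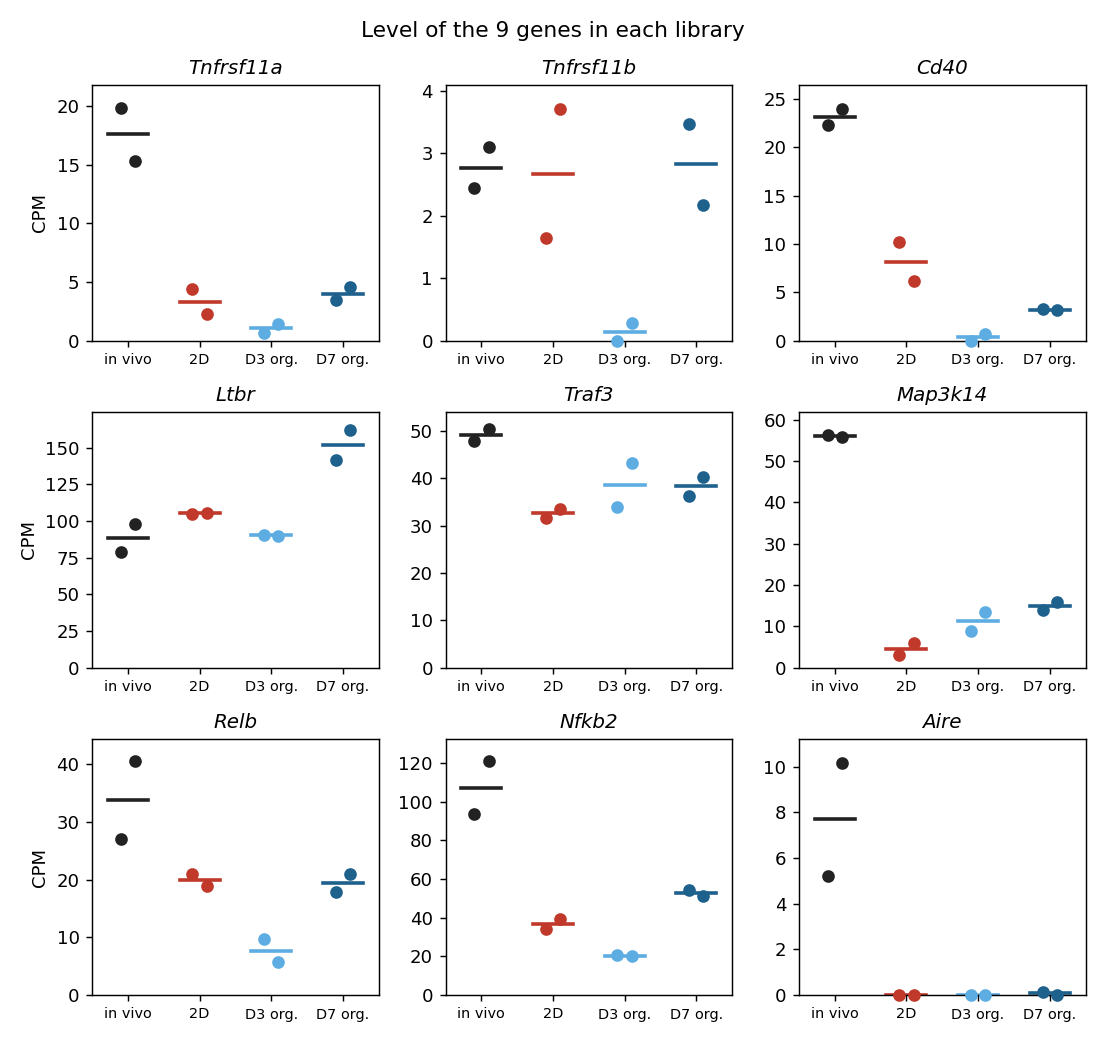
Level of each of the 9 genes in CPM (counts per 1000000, vertical axis from 0, a scale of its own for each gene) in each library, by group; points are libraries and bars the mean of 2. *In vivo* libraries lie above all cultured ones for *Tnfrsf11a*, *Cd40*, *Traf3*, *Map3k14*, *Relb*, *Nfkb2* and *Aire*, and *Ltbr* is highest in D7 organoids, at 142 and 162 CPM.

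RANK is the receptor through which RANK ligand induces *Aire*-expressing medullary cells. *Tnfrsf11a* (ENSMUSG00000026321, GRCm39, chromosome 1, 105708358 to 105777170) was at 19.8 and 15.4 CPM *in vivo*, 4.36 and 2.23 CPM in 2D-cultured TECs, 0.676 and 1.40 CPM in D3 organoids and 3.47 and 4.55 CPM in D7 organoids. All *in vivo* values lay above all cultured ones, D3 organoids lay below the other cultures, and D7 organoids overlapped 2D-cultured TECs. *In vivo* TECs exceeded D7 organoids by a log2 fold change of 2.14 ± 0.47 (SE, adjusted p = 0.00183), and D7 organoids differed from 2D-cultured TECs by 0.26 ± 0.51 (adjusted p = 0.702). The steps within culture rest on 4 to 28 counts a library. The fall from 2D to D3 organoids (-1.62 ± 0.59, adjusted p = 0.0372) missed the threshold without 2D replicate 1 (-1.07, adjusted p = 0.282) and without D3 replicate 1 (-1.23, adjusted p = 0.184), and by limma-voom (adjusted p = 0.147). The step up from D3 to D7 organoids (1.89 ± 0.57, adjusted p = 0.0266) missed it without D3 replicate 1 (1.49, adjusted p = 0.165) and without D7 replicate 2 (1.70, adjusted p = 0.152).

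Osteoprotegerin is the secreted decoy that binds RANK ligand and so restrains RANK. *Tnfrsf11b* (ENSMUSG00000063727, chromosome 15, 54114015 to 54142075) had 14 and 22 counts *in vivo*, 9 and 20 in 2D-cultured TECs, 0 and 2 in D3 organoids and 28 and 11 in D7 organoids. The 3 other groups overlapped each other and D3 organoids stood below all of them. Pooling each group, D7 organoids had 19.4 times the level of D3 organoids, with a 95% interval of 5.03 to 166 that covers counting error alone, and *in vivo* TECs had 18.3 times the level (4.72 to 157). The edgeR test called the differences from D3 organoids in all 3 comparisons, for example for D7 over D3 organoids (adjusted p = 0.018). Without D3 replicate 1, the library at 0, none of these was called, with adjusted p of 0.0856 for *in vivo* over D3, 0.0685 for D3 over 2D and 0.107 for D7 over D3. The call for D3 over 2D was also lost without 2D replicate 2 (adjusted p = 0.0791), and that for D7 over D3 without either D7 library (adjusted p = 0.100 and 0.0562). *Tnfrsf11b* was thus not called between *in vivo* and D7 organoids (-0.04 ± 0.84, adjusted p = 0.979), where *Tnfrsf11a*, its counterpart receptor, was.

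CD40 receives its ligand from activated T cells and acts with RANK in the adult medulla. *Cd40* (ENSMUSG00000017652, chromosome 2, 164897544 to 164914868) was at 22.3 and 23.98 CPM *in vivo*, 10.2 and 6.13 CPM in 2D-cultured TECs, 0 and 0.699 CPM in D3 organoids and 3.23 and 3.16 CPM in D7 organoids. The 4 groups did not overlap, and the order was *in vivo*, 2D, D7, D3. D3 organoids held 0 and 5 counts, a pooled level of 0.383 CPM (exact Poisson 95% interval 0.124 to 0.893, counting error alone), against 128 and 170 counts *in vivo*. The fitted difference on the log2 scale was 5.86 ± 0.62 between *in vivo* TECs and D3 organoids (adjusted p = 1.26e-06), 2.85 ± 0.46 over D7 organoids (adjusted p = 0.000142) and -4.36 ± 0.65 for D3 organoids over 2D (adjusted p = 4.43e-05).

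The recovery of *Cd40* from D3 to D7 organoids was 3.01 ± 0.71 (adjusted p = 0.00614), and without D3 replicate 1 it was 2.16 (adjusted p = 0.055). *Cd40* was also the member called lower in D7 organoids than in 2D-cultured TECs, at -1.35 ± 0.48 (adjusted p = 0.0297). That call was lost without 2D replicate 1 (-0.94, adjusted p = 0.236) and without either D7 library (adjusted p = 0.112 and 0.105). *In vivo* over 2D was 1.5 ± 0.43 (adjusted p = 0.00936), and 1.18 without 2D replicate 2 (adjusted p = 0.102).

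The lymphotoxin beta receptor is made by most epithelial and stromal cells and directs the organization of the medulla. *Ltbr* (ENSMUSG00000030339, chromosome 6, 125283534 to 125290886) was at 78.8 and 98.2 CPM *in vivo*, 105.1 and 106 CPM in 2D-cultured TECs, 90.6 and 90.2 CPM in D3 organoids and 142 and 162 CPM in D7 organoids. D7 organoids lay above all other libraries. The 3 other groups were between 78.8 and 106 CPM, and neighbours in their order were not called (adjusted p = 0.31 for 2D against D3, and 0.919 for D3 against *in vivo*). The log2 fold change of *in vivo* TECs over D7 organoids was -0.77 ± 0.16 (adjusted p = 0.0015). D7 organoids exceeded D3 organoids by 0.75 ± 0.16 (adjusted p = 0.00402) and 2D-cultured TECs by 0.52 ± 0.16 (adjusted p = 0.0155). Without D7 replicate 2 the excess over D3 organoids was 0.65 (adjusted p = 0.0582) and that over 2D 0.43 (adjusted p = 0.124), and that over 2D was also not called without 2D replicate 1 (adjusted p = 0.0776) or 2D replicate 2 (adjusted p = 0.0692).

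**Figure D2:**
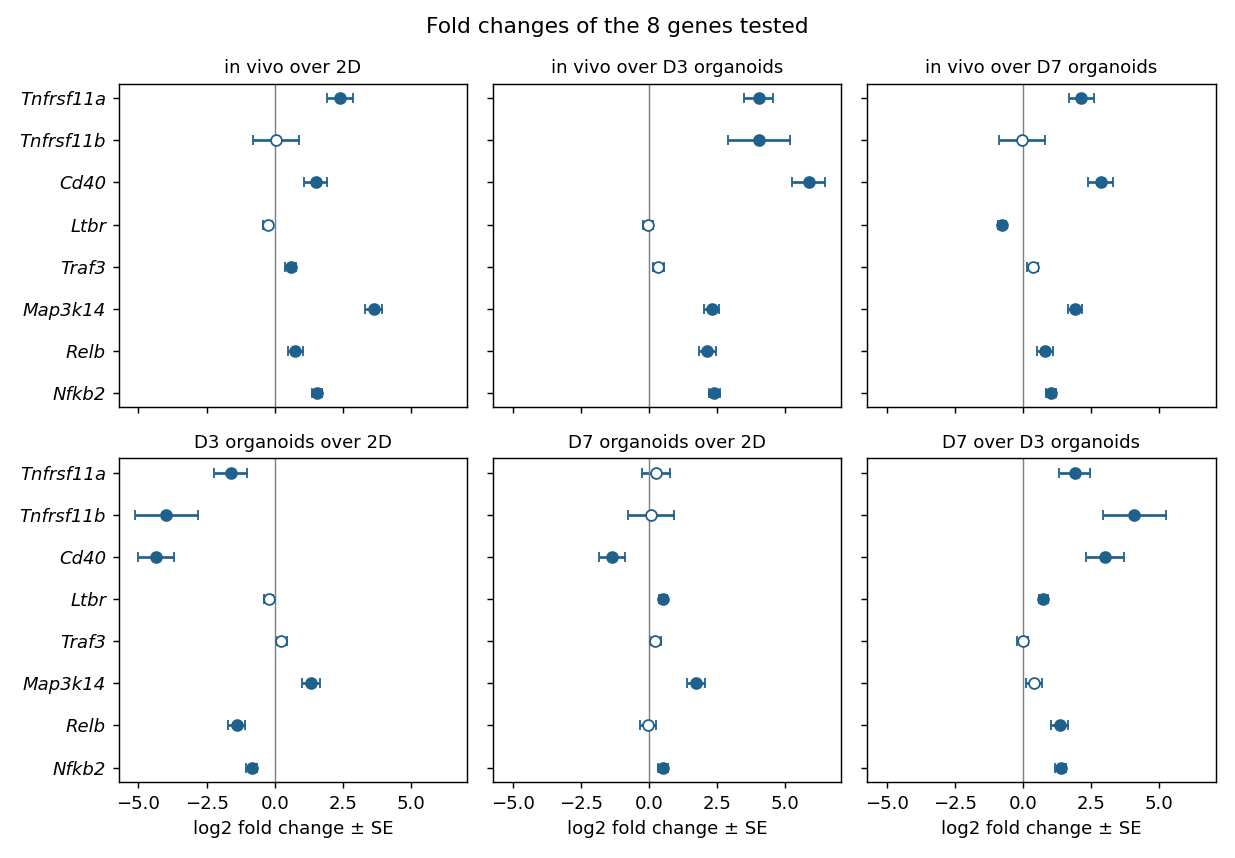
Log2 fold change ± SE (horizontal axis) of the 8 genes that passed the filter, in the 6 comparisons, from the edgeR fit; filled points were called at an adjusted p of 0.05 and open points were not. D7 over D3 organoids has 6 filled points, all to the right of 0, with *Traf3* and *Map3k14* open.

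TRAF3 and NIK are the brake and the kinase of the pathway. *Traf3* (ENSMUSG00000021277, chromosome 12, 111132776 to 111233589) had the narrowest range of the members as a ratio of highest to lowest library, with 47.9 and 50.5 CPM *in vivo*, 31.6 and 33.6 CPM in 2D-cultured TECs, 34.0 and 43.3 CPM in D3 organoids and 36.4 and 40.3 CPM in D7 organoids. The *in vivo* libraries lay above all cultured ones and the 2D libraries below all others, while D3 and D7 organoids overlapped. *In vivo* over 2D was 0.59 ± 0.20 (adjusted p = 0.0254), a call lost without *in vivo* replicate 2 (adjusted p = 0.0842), without 2D replicate 1 (adjusted p = 0.122) and without 2D replicate 2 (adjusted p = 0.0745), and the other 5 comparisons were not called, with log2 fold changes of -0.02 to 0.36.

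*Map3k14* (ENSMUSG00000020941, chromosome 11, 103110577 to 103158298) was at 56.2 and 55.9 CPM *in vivo*, 3.09 and 5.94 CPM in 2D-cultured TECs, 8.96 and 13.6 CPM in D3 organoids and 14.0 and 15.8 CPM in D7 organoids. The groups did not overlap. Of the 8 members tested it differed most between *in vivo* and 2D-cultured TECs, by 3.63 ± 0.32 (adjusted p = 6.44e-08), and the only one called higher in organoids of both ages than in 2D, by 1.33 ± 0.33 at D3 (adjusted p = 0.00443) and 1.72 ± 0.33 at D7 (adjusted p = 0.000411). Without 2D replicate 1 the D3 difference was 0.92 (adjusted p = 0.0792), and without D3 replicate 2 it was 1.01 (adjusted p = 0.0637). From D3 to D7 the change was 0.39 ± 0.29 (adjusted p = 0.377), so *Map3k14* and *Traf3* were the members not called between the organoid ages. The ratio of *Map3k14* to *Traf3* counts was 1.18 and 1.11 *in vivo*, 0.0977 and 0.177 in 2D, 0.264 and 0.313 in D3 organoids and 0.386 and 0.392 in D7 organoids, with no overlap between groups. Protein levels of NIK, which are set largely by degradation, were not measured.

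*Relb* and *Nfkb2* encode the DNA-binding pair of the pathway. *Nfkb2* (ENSMUSG00000025225, chromosome 19, 46292759 to 46303812) was at 93.6 and 121 CPM *in vivo*, 33.8 and 39.4 CPM in 2D-cultured TECs, 20.8 and 19.9 CPM in D3 organoids and 54.1 and 51.4 CPM in D7 organoids. The groups did not overlap, and each group was called different from each other group. *In vivo* TECs exceeded D3 organoids by 2.40 ± 0.20 (adjusted p = 7.56e-08) and D7 organoids by 1.02 ± 0.19 (adjusted p = 0.000414), and D7 exceeded D3 organoids by 1.38 ± 0.20 (adjusted p = 0.000181). D3 organoids over 2D-cultured TECs was -0.85 ± 0.20 (adjusted p = 0.00311). The smallest step, D7 organoids over 2D (0.53 ± 0.19, adjusted p = 0.0343), was lost in 5 of the 8 fits that left out 1 library, with adjusted p of 0.205 without 2D replicate 1, 0.058 without 2D replicate 2, 0.0537 without D3 replicate 2, 0.136 without D7 replicate 1 and 0.0795 without D7 replicate 2.

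*Relb* (ENSMUSG00000002983, chromosome 7, 19339017 to 19363425) was at 27.0 and 40.5 CPM *in vivo*, 20.9 and 18.9 CPM in 2D-cultured TECs, 9.63 and 5.73 CPM in D3 organoids and 17.9 and 21.0 CPM in D7 organoids. D3 organoids lay below all other libraries, 2D-cultured TECs and D7 organoids overlapped, and the *in vivo* libraries lay above both. The fold changes involving D3 organoids were 2.15 ± 0.30 for *in vivo* over D3 (adjusted p = 3.11e-05), -1.39 ± 0.31 for D3 over 2D (adjusted p = 0.00167) and 1.34 ± 0.31 for D7 over D3 (adjusted p = 0.00493), the last of which was 0.94 without D3 replicate 2 (adjusted p = 0.0948). *In vivo* over 2D (0.76 ± 0.28, adjusted p = 0.0366) and over D7 organoids (0.81 ± 0.28, adjusted p = 0.0321) rested on *in vivo* replicate 2, without which they were 0.43 (adjusted p = 0.308) and 0.49 (adjusted p = 0.255). The first was also lost without 2D replicate 1 (adjusted p = 0.105) or 2D replicate 2 (adjusted p = 0.167), and the second without D7 replicate 1 (adjusted p = 0.182) or D7 replicate 2 (adjusted p = 0.0847).

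The canonical subunits did not follow the noncanonical pair in every comparison. *Nfkb1*, the canonical relative of *Nfkb2*, was at 126 and 148 CPM *in vivo*, 55.1 and 63.3 CPM in 2D-cultured TECs, 223 and 217 CPM in D3 organoids and 160 and 136 CPM in D7 organoids. Its highest group was thus the group with the lowest *Nfkb2*, and it was 1.89 ± 0.17 higher in D3 organoids than in 2D (adjusted p = 1.1e-07) and changed by -0.57 ± 0.16 from D3 to D7 organoids (adjusted p = 0.0182), the last not called without D3 replicate 1 (-0.55, adjusted p = 0.0789) or D7 replicate 2 (-0.45, adjusted p = 0.211). The ratio of *Nfkb2* to *Nfkb1* counts was 0.744 and 0.815 *in vivo*, 0.614 and 0.622 in 2D, 0.0932 and 0.0916 in D3 organoids and 0.338 and 0.377 in D7 organoids. The groups did not overlap in this ratio.

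*Rela*, the canonical partner, was between 45.8 and 78.0 CPM in all libraries, and higher in 2D than *in vivo* (-0.72 ± 0.18 for *in vivo* over 2D, adjusted p = 0.00354). The ratio of *Relb* to *Rela* counts was 0.562 and 0.883 *in vivo*, 0.268 and 0.246 in 2D, 0.162 and 0.104 in D3 organoids and 0.301 and 0.290 in D7 organoids. D3 organoids were lowest for both ratios, and D7 organoids lay below 2D-cultured TECs for the first ratio and above them for the second. These ratios compare libraries and do not give the relative abundance of the proteins.

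**Figure D3:**
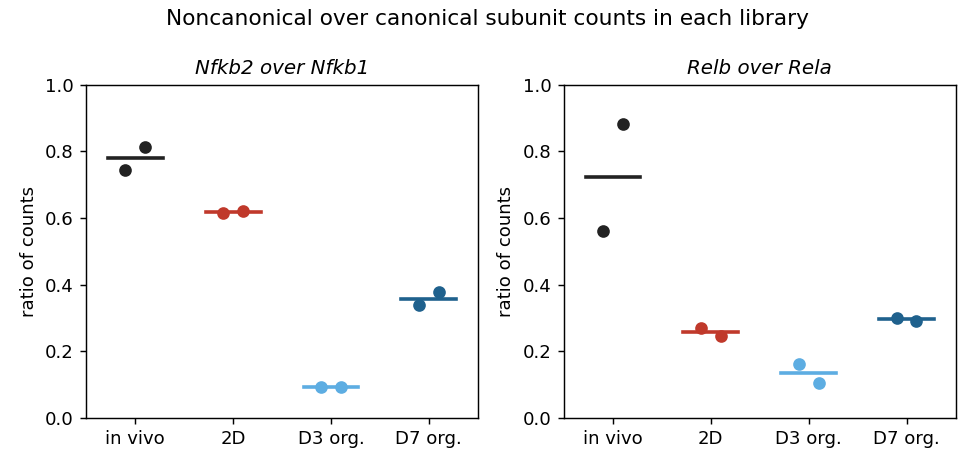
Ratio of the counts of a noncanonical to a canonical NF-kB subunit gene in each library (vertical axes from 0 to 1), with points for libraries and bars for the mean of 2. *Nfkb2* over *Nfkb1* falls from 0.744 and 0.815 *in vivo* to 0.0932 and 0.0916 in D3 organoids, and *Relb* over *Rela* from 0.562 and 0.883 to 0.162 and 0.104.

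The start sites of 6 of the 9 members were looked up in RefSeq (GRCm38.p6, an older build than that of the counts), as windows of 250 bases before to 50 bases after each start. The NF-kB consensus known as the kappaB site, searched on both strands, was found in the windows of *Nfkb2* and *Traf3* and not in those of *Tnfrsf11a*, *Ltbr*, *Map3k14* and *Aire*, and 4.51% of 32851 windows of all genes held one. All 3 windows of *Nfkb2* held matches, and 1 position falls in windows of 2 of its starts. The sequences are shown because *Nfkb2*, called different between all pairs of groups as *Cd40* was, is a well known target of NF-kB itself. All are written as the plus strand. The *Nfkb2* match that begins 236 bases before the second start lies on the other strand, so its reverse complement fits the consensus. The matching bases are in capitals, with 10 bases on each side:

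Traf3, chr12:111166350-111166379, plus strand: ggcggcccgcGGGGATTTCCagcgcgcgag

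Nfkb2 first start, chr19:46304688-46304717, plus strand: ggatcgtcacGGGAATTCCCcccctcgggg

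Nfkb2 first start, chr19:46304716-46304745, plus strand: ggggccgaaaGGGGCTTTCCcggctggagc

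Nfkb2 second start, chr19:46305449-46305478, plus strand: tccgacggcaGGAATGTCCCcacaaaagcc

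Nfkb2 second and last start, chr19:46305695-46305724, plus strand: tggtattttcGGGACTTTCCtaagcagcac

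The pair at the first *Nfkb2* start begins 39 and 11 bases before it, as the 250 bases before that start show in their place, with an overlapping match on the other strand adding 1 base to the first run of capitals:

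Nfkb2, chr19:46304487-46304736, plus strand: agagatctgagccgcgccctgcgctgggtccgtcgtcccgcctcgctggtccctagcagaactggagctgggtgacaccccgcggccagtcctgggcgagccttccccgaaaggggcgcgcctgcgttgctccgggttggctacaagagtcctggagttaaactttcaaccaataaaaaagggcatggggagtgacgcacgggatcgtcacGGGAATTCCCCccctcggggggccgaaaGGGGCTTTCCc

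A match describes these letters, and binding of RelB or any other factor was not measured.

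*Aire* (ENSMUSG00000000731, chromosome 10, 77865321 to 77879444) had 30 and 72 counts *in vivo*, 0 in each 2D and each D3 library, and 1 and 0 counts in D7 organoids. It was therefore detected in 3 of 8 libraries and did not pass the filter of 1 CPM in 3 libraries. Set against 3 counts per library, its *in vivo* level was at least 13.9-fold higher than in 2D-cultured TECs and at least 16.6-fold higher than in D3 organoids. Against the single count of D7 organoids the ratio was 104 with a 95% interval of 18.3 to 4158, counting error alone. In a fit with no filter on low counts, the edgeR test called *Aire* higher *in vivo* than in 2D (adjusted p = 9.74e-07), D3 (adjusted p = 6.11e-07) and D7 organoids (adjusted p = 5.08e-06). Thus the recovery of *Nfkb2*, *Relb*, *Tnfrsf11a* and *Cd40* between D3 and D7 was not accompanied by a detectable return of *Aire*, for which the D7 libraries allow up to 0.425 CPM.

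The 11 tissue genes looked up as antigens that medullary TECs can show, some of them known to depend on AIRE, were near the floor as well. *Csn2*, a milk casein, had 20 and 17 counts *in vivo* and 0 in all cultured libraries, at least 5.33-fold higher than in 2D-cultured TECs. *Crp*, *Sst*, *Tff3*, *Apoa2* and *Fgb* had between 0 and 19 counts in any library, and *Ins2*, *Rbp3*, *Fabp9*, *Mup1* and *Spink1* had 0 in all. None of the 11 passed the filter.

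The ligands of these receptors were scarce in all groups. *Tnfsf11* (RANK ligand) had 27 and 8 counts *in vivo*, 5 and 3 in 2D-cultured TECs, 0 and 4 in D3 organoids and 1 and 0 in D7 organoids. *Cd40lg* (CD40 ligand) had 0 counts in all 8 libraries, which allows up to 3 counts a library, and the lymphotoxin genes *Lta* and *Ltb* and the ligand gene *Tnfsf14* had at most 3. *Tnfsf12* (TWEAK) passed the filter, with 8 to 36 counts, and was called in none of the 6 comparisons.

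Receptors of the same family outside the 9 members moved in both directions, with 6 of 12 tested called higher and 4 lower in D3 organoids than in 2D-cultured TECs. Of all genes 19.3% were called higher and 19.1% lower there. *Tnfrsf12a* (Fn14, the TWEAK receptor, which also acts on the noncanonical pathway) had 0 counts in both *in vivo* libraries, 33.5 and 50.1 CPM in 2D-cultured TECs, 1.18 and 0.979 CPM in D3 organoids and 1.24 and 0.791 CPM in D7 organoids. Its level in 2D was at least 88.4-fold that of *in vivo* TECs, taken at 3 counts per library, and D3 organoids over 2D was -5.26 ± 0.44 on the log2 scale (adjusted p = 9.71e-08). It was thus a receptor of the pathway with its peak in 2D, where *Tnfrsf11a* and *Cd40* were below their *in vivo* levels.

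*Tnfrsf18* (GITR) was at 9.57 and 11.4 CPM *in vivo*, 1.09 and 0.743 CPM in 2D, 61.7 and 64.4 CPM in D3 organoids and 81.3 and 75.5 CPM in D7 organoids, and *Ngfr*, the low-affinity neurotrophin receptor, was at 26.1 to 39.9 CPM *in vivo* and in 2D, 779 and 795 CPM in D3 organoids and 359 and 383 CPM in D7 organoids. Both were called higher in organoids than in 2D and *in vivo*, *Ngfr* by 4.43 ± 0.18 for D3 over 2D (adjusted p = 1.6e-11). *Tnfrsf1a*, the main TNF receptor, had 179 and 170 CPM in D3 organoids against 54.5 and 35.8 CPM in 2D (1.95 ± 0.19, adjusted p = 3.22e-07). *Edar* and *Tnfrsf19* were called higher both *in vivo* and in organoids than in 2D.

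Of 16 adaptors and kinases around TRAF3 and NIK, 4 were called higher and 5 lower *in vivo* than in 2D-cultured TECs (3 lower with no scaling or with any 1 of these 4 libraries left out), and 6 higher and none lower *in vivo* than in D7 organoids. Shares of all genes tested were 21.7% higher and 19.9% lower for *in vivo* over 2D, and 16.8% higher and 18% lower for *in vivo* over D7. The ubiquitin ligases that act with TRAF3 were higher *in vivo* than in each culture. *Birc2* (cIAP1) was at 76.9 and 103 CPM *in vivo* and 18.01 to 44.4 CPM in culture, 1.96 ± 0.23 higher than in D3 organoids (adjusted p = 5.38e-06), and *Birc3* (cIAP2), itself an NF-kB target, was at 42.0 and 42.9 CPM *in vivo* and 5.41 to 14.5 CPM in culture, 2.83 ± 0.33 higher than in D3 organoids (adjusted p = 3.38e-06). *Traf2* was called in none of the 6 comparisons. The IkB kinase genes behaved unequally, as *Ikbkb* was called in no comparison while *Chuk* (IKK alpha, the kinase below NIK) was lower in D7 organoids than in 2D (-1.57 ± 0.26, adjusted p = 0.000111).

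Of 10 IkB family and other regulator genes of NF-kB, many induced by it, 9 were called higher *in vivo* than in D3 organoids. None was called lower, and the median log2 fold change was 1.69. Of all genes 14.0% were called higher there. In D3 organoids 8 of the 10 were called lower than in 2D-cultured TECs and none higher (median -1.47), where 19.1% of all genes were called lower. These 8 were 4 with no scaling beyond library size, which left out *Nfkbib*, *Nfkbie*, *Nfkbid* and *Cyld*, and 5 without 2D replicate 2 or without D3 replicate 1. From D3 to D7 organoids 3 were called higher and none lower (median 0.55), where 10.9% of all genes were called higher. *Nfkbia* (IkB alpha) was at 851 and 969 CPM *in vivo*, 346 and 316 CPM in 2D, 276 and 252 CPM in D3 organoids and 428 and 364 CPM in D7 organoids. *Nfkbie* (IkB epsilon) was at 19.8 and 14.9 CPM, 4.18 and 6.68 CPM, 1.18 and 2.66 CPM, and 10.5 and 8.30 CPM in the same order of groups, rising by 2.26 ± 0.46 from D3 to D7 (adjusted p = 0.00241). *Tnip2* was the gene of this list not called in any comparison.

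**Figure D4:**
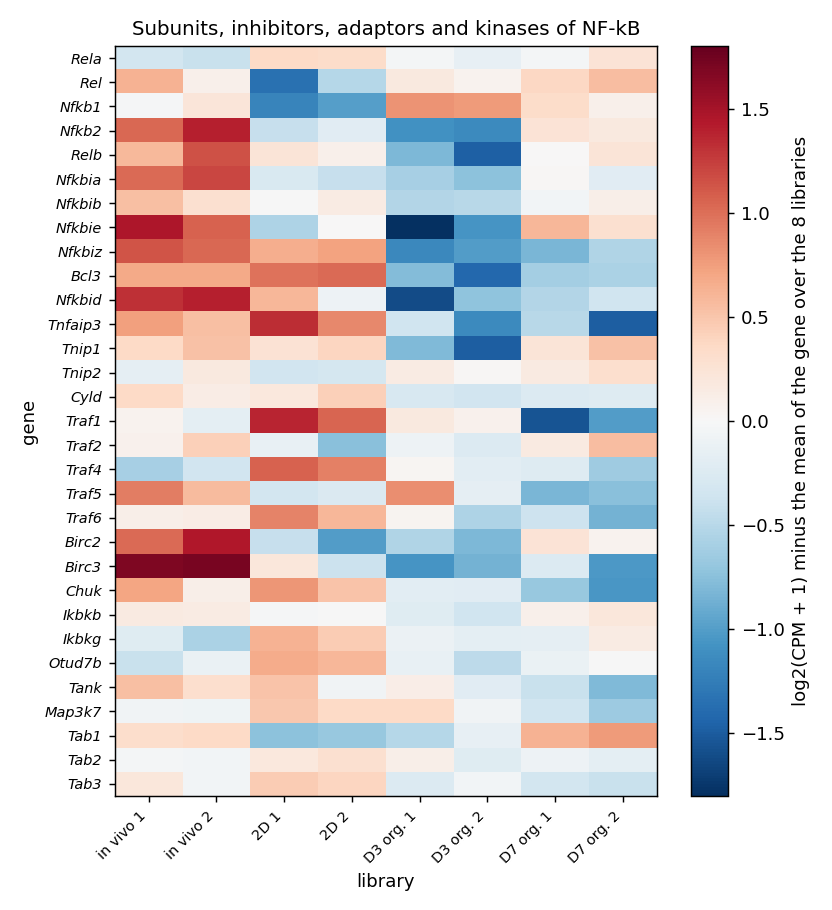
Subunits, IkB family and other regulator genes (titled inhibitors), adaptors and kinases of NF-kB (rows) in the 8 libraries (columns). Colour is log2(CPM + 1) minus the mean of that gene over the libraries, red for above and blue for below. *Nfkb2*, *Relb* and most IkB family and other regulator genes are lowest in D3 organoids, while *Nfkb1* is highest there, at 223 and 217 CPM.

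Of 24 NF-kB target genes, 20 passed the filter, among them *Relb*, *Nfkb2*, *Nfkb1* and others of the lists above. Of the 20, 10 were called lower and 3 higher in D3 organoids than in 2D-cultured TECs, where 19.1% and 19.3% of all genes were. In D7 organoids 6 were called higher and 2 lower than in D3 organoids, where 10.9% and 9.91% of all genes were. The 3 were 1 with any 1 of the 2D or D7 libraries or D3 replicate 1 left out. The 6 were 2 without D3 replicate 2, 3 without D7 replicate 1 and 4 without D7 replicate 2, and the 2 lower were 0 without D3 replicate 1 or D7 replicate 2. *Vcam1*, an adhesion molecule, was at 239 and 247 CPM *in vivo*, 55.5 and 57.0 CPM in 2D, 3.55 and 2.10 CPM in D3 organoids and 28.5 and 32.4 CPM in D7 organoids. Its order of groups differed from that of *Nfkb2* in that 2D-cultured TECs exceeded D7 organoids, and it rose by 3.45 ± 0.25 from D3 to D7 (adjusted p = 1.22e-07). *Cxcl10*, a chemokine also induced by interferon, was at 148 and 140 CPM *in vivo*, 10.7 and 9.84 CPM in 2D and under 1 CPM in all organoid libraries, and was not called between D3 and D7 (0.31 ± 0.60, adjusted p = 0.794). Some targets were highest in 2D, such as *Cxcl5* at 183 CPM in each 2D library and 0.870 to 28.7 CPM elsewhere, and *Csf1* at 57.3 and 55.9 CPM in 2D and 7.49 to 19.4 CPM elsewhere.

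Of 8 genes of stroma known to depend on the noncanonical pathway, mostly lymphoid chemokines, 4 passed the filter, and all 4 were called higher *in vivo* than in either organoid group. Of all genes 14.0% were called higher *in vivo* than in D3 organoids and 16.8% than in D7 organoids. *Ccl21a*, a chemokine of medullary TECs that depends on the lymphotoxin beta receptor, was at 28.7 and 26.8 CPM *in vivo*, 134 and 142 CPM in 2D-cultured TECs, 1.52 and 0.979 CPM in D3 organoids and 0.496 and 0.198 CPM in D7 organoids. It was lowest in D7 organoids, where *Ltbr* was highest, and D7 organoids over 2D was -8.43 ± 0.34 on the log2 scale (adjusted p = 8.38e-12). *Ccl19* had 28 counts *in vivo* in sum and 0 in each cultured library. *Cxcl12*, which marks cortical TECs as well, was at 575 and 586 CPM *in vivo*, 6.18 and 5.57 CPM in 2D and 241 to 267 CPM in organoids.

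Of 27 medullary TEC genes 19 passed the filter, including *Tnfrsf11a*, and they split into groups that moved apart. For *in vivo* TECs over D3 organoids 9 were called higher and 7 lower, where 14.0% and 14.1% of all genes were. Over 2D 7 were called higher and 7 lower, where 21.7% and 19.9% of all genes were. For D7 over D3 organoids 8 were called higher and 2 lower, where 10.9% and 9.91% of all genes were. From the 4 libraries alone 15 were tested, with 5 called higher and 3 lower. Fewer were also called higher without D3 replicate 2 or D7 replicate 2. *Fezf2*, the other regulator of tissue genes in medullary TECs, did not pass the filter and had 38 and 88 counts *in vivo* and 0 in all 6 cultured libraries, at least 17.3-fold above 2D, 20.5-fold above D3 and 19.7-fold above D7 organoids at 3 counts per library. Like *Aire*, it was higher in *in vivo* replicate 2.

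*Spib*, a transcription factor induced by RANK that limits medullary differentiation, was at 32.7 and 37.4 CPM *in vivo*, 5.45 and 4.27 CPM in 2D, 1.01 and 0.839 CPM in D3 organoids and 7.82 and 9.69 CPM in D7 organoids. It rose by 3.21 ± 0.42 from D3 to D7 (adjusted p = 6.71e-05) and *in vivo* TECs exceeded D7 organoids by 2.01 ± 0.30 (adjusted p = 5.87e-05). *Cd83*, which stabilises MHC class II at the surface, was at 138 and 154 CPM *in vivo* and at most 3.56 CPM in culture, with a log2 difference of 1.84 ± 0.48 for D7 over D3 organoids (adjusted p = 0.012) that was not called by limma-voom (adjusted p = 0.139), from the 4 libraries alone (adjusted p = 0.0864), without D3 replicate 2 (adjusted p = 0.117) or without D7 replicate 2 (adjusted p = 0.0781). *Spib* was thus higher in D7 than in D3 organoids, as *Relb* and *Nfkb2* were.

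The keratins and claudins of medullary cells had another pattern. *Krt14* was at 919 and 1047 CPM in 2D-cultured TECs against 19.8 to 52.1 CPM elsewhere, and *Cldn4* at 1102 and 1205 CPM against 9.92 to 65.8 CPM elsewhere, both called higher in 2D than in each other group. *Krt5* fell by 1.80 ± 0.18 on the log2 scale from D3 to D7 organoids (adjusted p = 3.39e-06), where none of the 8 members tested was called lower. *Spink5* was at 70.2 and 102 CPM in D7 organoids and 3.13 to 12.6 CPM elsewhere. Genes called medullary in bulk libraries therefore include some highest *in vivo*, with *Aire*, some highest in 2D and some highest in D7 organoids. Fewer cells of a type and less RNA per cell cannot be told apart in such libraries. The 10 cortical TEC genes listed summed to 9109 and 8904 CPM *in vivo*, 786 and 678 CPM in 2D, 455 and 475 CPM in D3 organoids and 1290 and 1235 CPM in D7 organoids. Of the 2D sums *Ctsl* alone gave 715 and 613 CPM, against 125 and 130 CPM in D3 organoids. Gene by gene, 2 of the 10 were called higher and 3 lower in D3 organoids than in 2D (median log2 fold change 0.45). Of all genes 19.3% were called higher and 19.1% lower there. From D3 to D7 organoids 9 of the 10 were called higher and none lower, with a median log2 fold change of 3.21. Among the 8 members tested, 6 were called higher there with a median of 1.36, and of all genes 10.9% were called higher. The rise was thus not particular to the members. The part of the cortical genes in the members' levels was not tested.

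**Figure D5:**
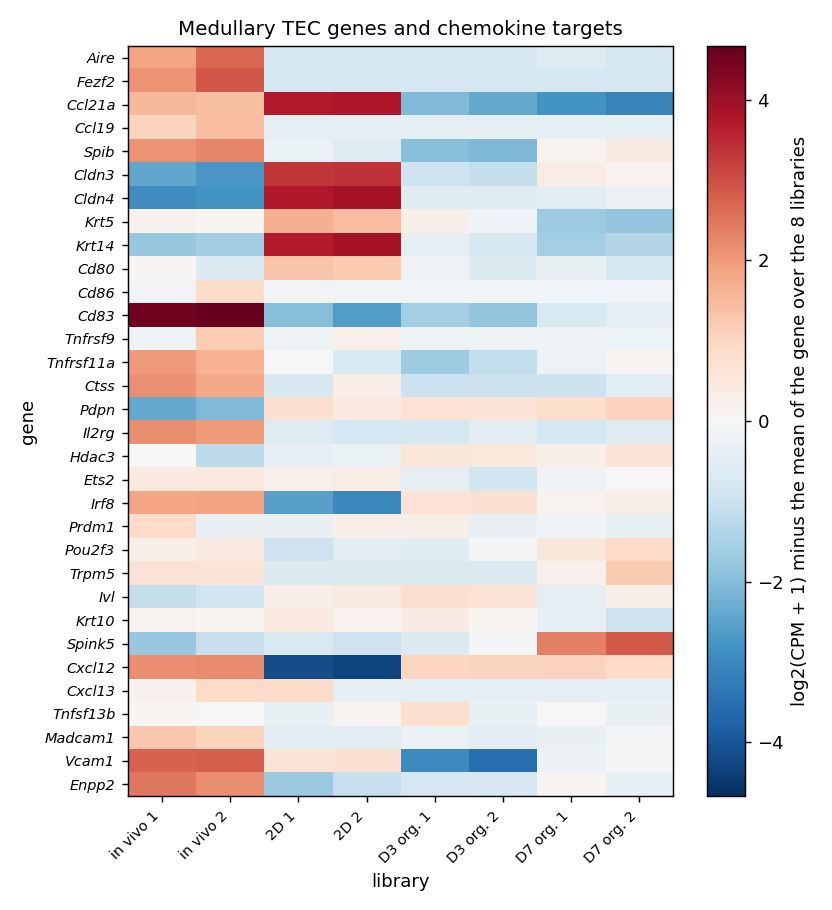
Medullary TEC genes and stromal targets of the noncanonical pathway (rows) in the 8 libraries (columns), coloured by log2(CPM + 1) minus the mean of that gene over the libraries, red for above and blue for below. *Aire*, *Fezf2*, *Spib* and *Cd83* are highest *in vivo*, *Krt14*, *Cldn4* and *Ccl21a* in 2D-cultured TECs, and *Spib* is higher in D7 than in D3 organoids.

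Over the 8 libraries, which fall into 4 groups and are given here as a description, *Nfkb2* had Pearson correlations of log2 levels of 0.933 with *Tnfrsf11a* and 0.908 with *Relb*, and *Cd40* of 0.913 with *Tnfrsf11a*. *Map3k14* was most like *Traf3* (r = 0.941), and *Ltbr* had r between -0.273 and 0.397 with all others. Among 9018 genes with a mean of at least 10 CPM, the profile nearest to *Nfkb2* was that of *Hpgd*, a prostaglandin dehydrogenase (r = 0.987), followed by *Spib* (r = 0.985) and *Kazn* (r = 0.984). Nearest to *Tnfrsf11a* were *Calcoco1* (r = 0.988), *Magt1* and *Gper1*, to *Cd40* *Dipk1a* (r = 0.986), *Hivep1* and *Gas5*, and to *Relb* *Tbl1x* (r = 0.984), *Daam1* and *Slc22a23*. Nearest to *Map3k14* were *Etnk1* (r = 0.986), *AU020206* and *Pithd1*, to *Traf3* *AU020206* (r = 0.968), *Ndufv2* and *Dtnbp1*, to *Ltbr* *Ubxn6* (r = 0.985), *Il34* and *S100a1*, and to *Tnfrsf11b* *Gstt2* (r = 0.965), *Exoc6b* and *Zfp444*. *Il34*, a ligand of the macrophage growth factor receptor, was at 3.48 to 19.1 CPM outside D7 organoids and 98.2 and 125 CPM in them, so its likeness to *Ltbr* rests on the D7 libraries.

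*Nfkb2* overlaps the genes *Psd* and *4833438C02Rik* on the other strand, which held at most 10 and 102 counts in a library, *Aire* overlaps *Dnmt3l* (at most 3 counts), *Map3k14* overlaps *1700028N14Rik* (at most 8) and *Gm34823*, *Traf3* overlaps *4930595D18Rik* (0 counts) and *Tnfrsf11a* overlaps *Gm70609*. *1700028N14Rik* lies on the same strand as *Map3k14*, and *Gm70609* on that of *Tnfrsf11a*, so strand would not separate these pairs. The remaining pairs lie on opposite strands. Whether the counting used strand is not given in the sources used here, so reads of those pairs may not be told apart either. Words of 50 bases from the last 500 bases of the members' transcripts were looked up in the last 500 bases of other genes' transcripts. Of these words 2.57% of those of *Relb* and 3.42% of those of *Aire* also occurred there, and none of those of the other 7. The rest of the transcripts was not compared.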

How the data were processed

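Gene counts of 8 QuantSeq 3′ mRNA libraries were deposited by the authors, 1 file of raw whole-number counts a library with 56923 genes, aligned with STAR to GRCm39 and handled with R 4.1.2, edgeR and limma per the submitters' processing notes and methods. The annotation release, strand setting and treatment of reads with several matches are not given in the sources used here. Symbols and positions came from GENCODE vM39 (56236 identifiers matched, 687 did not). CPM used TMM-scaled library sizes. The 14504 genes that reached 1 CPM in 3 or more libraries were tested in one edgeR 4.0.16 quasi-likelihood model of 4 groups (R 4.3.3), adjusted by Benjamini-Hochberg over all genes, which was tested on simulated data. Values are per library, or a mean of 2. Ribosomal RNA genes took 22.7 to 29.4% of counts. Floors were 3 counts per library, and intervals of pooled counts are exact, at 95%, and cover counting error only. Alternatives were DESeq2 1.42.0, limma-voom 3.58.1, other scaling, filters and libraries left out. The members and gene lists were chosen with earlier results of these data known. Members were all named, other list genes by their role in the pathway, and the 3 most alike genes per member by Pearson correlation of log2 CPM (prior count 2) over 8 libraries among genes with a mean of at least 10 CPM. Single results of a few listed genes are not reported here.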

Additional observations from a re-analysis of the deposited data

How the results depend on the processing

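The 48 results of single members gave 792 recomputed fold changes, and none of the 34 results called at first changed sign under any alternative. A call was lost in 14 of the 792 with all libraries kept, and in more of them with 1 library left out. A result can count here under several settings. With a mean of at least 10 CPM required, 5 members were tested and 3 were called for *in vivo* over D3 organoids, 3 for D3 organoids over 2D and 3 for D7 over D3 organoids. When the 4 libraries compared were fitted alone, 6 members were tested and 3 were called for D3 organoids over 2D and 3 for D7 over D3 organoids. Leaving out each library in turn gave 3 to 6 calls for *in vivo* over 2D (3 without 2D replicate 2), 5 to 6 for *in vivo* over D3, 5 to 6 for *in vivo* over D7, 4 to 6 for D3 over 2D, 1 to 4 for D7 over 2D (1 without 2D replicate 1 or D7 replicate 2) and 3 to 6 for D7 over D3 (3 without D3 replicate 1 or D7 replicate 2). An arm of 1 library was assumed to vary as the other groups do.

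Calls also lost with all libraries kept were *Relb* for *in vivo* over 2D (adjusted p 0.0516 with no filter, 0.0539 with ribosomal RNA genes left out, 0.0754 by DESeq2) and over D7 (0.0513 by DESeq2), *Traf3* for *in vivo* over 2D (0.0852 with no filter), *Nfkb2* for D7 over 2D (0.0554, 0.0801 and 0.0708 with ribosomal RNA genes left out, with no filter and by DESeq2), *Cd40* for D7 over 2D (0.0667 with no scaling beyond library size) and *Tnfrsf11a* for D3 over 2D (0.0774 with no scaling, 0.133 from the 4 libraries alone) and for D7 over D3 (0.0997 by limma-voom, 0.0609 from the 4 libraries alone). The cause was not tested.

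Changes of sign were confined to differences near 0 that were not called. They were *Tnfrsf11b* for *in vivo* over 2D (-0.01 with no filter, -0.42 to 0.75 with 1 library left out), for *in vivo* over D7 (-0.33 to 0.35 with 1 left out) and for D7 over 2D (-0.39 to 0.78), *Ltbr* for *in vivo* over D3 (0.01 at a mean of 10 CPM, -0.21 to 0.12 with 1 left out) and D3 over 2D (0.04 with no scaling), *Tnfrsf11a* for D7 over 2D (-0.15 to 0.82), *Relb* for D7 over 2D (0.16 with no scaling, 0.02 at a mean of 10 CPM, up to 0.07 with 1 left out) and *Traf3* for D7 over D3 (0.02 at a mean of 10 CPM, -0.18 to 0.11 with 1 left out).

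With no scaling beyond library size the median of all genes moved from 0.06 to 0.24 for *in vivo* over 2D, 0.03 to 0.29 for D3 over 2D and 0.10 to 0.31 for D7 over 2D, and higher and lower calls from 3150 and 2883 to 3802 and 2221, from 2798 and 2764 to 3872 and 1886, and from 3546 and 3059 to 4340 and 2315. Of 375 called results of the other listed genes, 351 kept call and direction under that setting, 359 to 375 under the others that kept all libraries and genes, 294 of the 296 fitted at a mean of 10 CPM, 288 of the 303 fitted from the 4 libraries alone, and 330 to 350 with 1 library left out, with no change of sign. The labels number the replicates alike across groups, but same-numbered libraries deviated together with correlations of 0.026 to 0.132, so the numbers were not taken as pairs, and the replicate block gave 6, 6, 6, 6, 4 and 6 calls, as without it. *Aire*, *Tnfrsf11b*, *Cd40* at D3 and the ligands are limited by depth.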
